A study of Homo sapiens with 4 samples.

Results

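The IFIT genes encode the interferon-induced proteins with tetratricopeptide repeats, a small family of cytoplasmic RNA binders that act against viruses. The members described here, IFIT1, IFIT2, IFIT3 and IFIT5, were taken as the rows of the deposited gene table with those symbols, and all 4 were found among its 28278 genes. RNA sequencing was carried out on A549 cells, a human lung adenocarcinoma line, in 4 libraries. The Control line stably carries a lentiviral control construct (genotype WT in the labels), the OE_CBX7 line stably carries a lentiviral construct that expresses CBX7, and each line gave 2 libraries of total RNA. CBX7 is a chromobox subunit of Polycomb repressive complexes, and the series addresses its role as a repressor of transcription in metastasis. Each group is a single stable line, both lines had received a lentivirus, and cells without a virus are not analysed here. The labels do not say whether the 2 libraries of a line are separate cultures, and the p-values therefore speak only of library-to-library spread, which may be technical.

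IFIT genes are held low in resting cells and are induced through interferon. Type I and type III interferons act on their receptors and on the kinases JAK1 and TYK2 to assemble a complex containing STAT2 and IRF9 that binds the interferon-stimulated response element (ISRE) in IFIT promoters, and IRF3, activated by sensors of viral RNA, can bind the same element directly. IFIT1 binds RNA whose cap lacks ribose methylation on the opening nucleotide and keeps such RNA from being translated. IFIT3 binds and stabilises IFIT1, IFIT2 joins it in the same complexes, and IFIT5 binds RNA with an uncapped triphosphate end and does not need the others to do so.

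The 4 genes lie side by side on the plus strand of chromosome 10 (GRCh38), in the order IFIT2 at chr10:89302046-89309271, IFIT3 at chr10:89327997-89340968, IFIT1 at chr10:89392623-89406487 and IFIT5 at chr10:89414568-89420997. IFIT1B, the remaining human gene of the family, sits between IFIT3 and IFIT1. IFIT1, IFIT2 and IFIT3 lie wholly inside the annotated span of LIPA, the gene for lysosomal acid lipase, which runs on the minus strand. Within exons the overlap is small, with 65 bases of IFIT2 shared with LIPA exons out of 4101. Whether the libraries mark strand is not given in the sources used here, so reads from IFIT2 and LIPA cannot be told apart over those bases.

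The promoter sequences are shown because the ISRE is the element through which these genes are induced, and because the 3 members with a RefSeq promoter entry (GRCh38.p14, 250 bases before to 50 after a start site) all hold it. IFIT3 has 2 windows, for 2 start sites. The plus strand is printed 5′ to 3′, with matches to the ISRE core in capitals, and the capitals read TTTC, 2 further bases and TTTC because every match was on the minus strand, where the core reads GAAA, any 2 bases and GAAA. For IFIT1 and the upstream IFIT3 window, the stretch ends before the earliest annotated exon. For the downstream IFIT3 window and IFIT5, only 30 bases around the match farthest upstream are printed.
IFIT1, chr10:89392373-89392545: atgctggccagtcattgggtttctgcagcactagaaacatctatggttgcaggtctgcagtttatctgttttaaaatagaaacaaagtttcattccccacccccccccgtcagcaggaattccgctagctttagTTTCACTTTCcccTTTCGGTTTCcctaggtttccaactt
IFIT3 upstream window, chr10:89327747-89327893: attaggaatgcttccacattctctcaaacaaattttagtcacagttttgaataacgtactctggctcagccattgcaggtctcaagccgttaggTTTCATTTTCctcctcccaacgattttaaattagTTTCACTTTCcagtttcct
IFIT3 downstream window, chr10:89332425-89332454: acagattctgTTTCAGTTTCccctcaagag
IFIT5, chr10:89414513-89414542: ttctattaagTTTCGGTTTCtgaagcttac

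Both strands were searched for the ISRE core (GAAA, any 2 bases, GAAA). It was present in 3.57% of 35116 promoter windows in the RefSeq table, which makes it uncommon, and each of the 4 IFIT windows held more than 1 copy. The IFIT1 window held 2 matches, at -116 to -107 and -103 to -94 from the start site, separated by only the bases between those positions. Each IFIT3 window held 2 matches, at -156 to -147 and -122 to -113 in the upstream window and at -94 to -85 and -51 to -42 in the downstream window. Of the 2 in the downstream window, 1 lies on bases of an annotated IFIT3 exon. The IFIT5 window held 3 matches, at -45 to -36, -19 to -10 and -4 to 5, so that 1 of them spans the start site, and 2 of them lie on bases of an annotated LIPA exon on the other strand. A longer form, the same core followed by CT, was present in 0.273% of windows, and it matched once in the IFIT1 window and in each IFIT3 window and 3 times in the IFIT5 window. The gamma-activated site TTCNNNGAA, present in 7.66% of windows, had 0 matches in the IFIT windows, and the IFIT1B window held 0 matches to the core. These matches describe letters in a window and not the binding of a factor.

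Library totals ranged from 69877585 to 90765502 counts, and 19678 to 20379 genes had a count above 0. CBX7 was measured first as a check of the labels, and its level was 8.37 ± 0.521 CPM (counts per 1000000, scaled by TMM factors) in Control and 18.1 ± 1.31 in OE_CBX7 (SD, n = 2 each). That is a log2 fold change of 1.11 with an adjusted p of 0.000141 in edgeR's quasi-likelihood test with Benjamini-Hochberg adjustment, the test used for every gene below. KRT8 and KRT18, keratins of simple epithelium, were at 6903 ± 110 and 4700 ± 4.78 CPM in Control and were not called, and CDKN2A and CDKN2B, which A549 cells lack by deletion, had at most 5 counts in any library. A list of 10 blood-cell markers held leukocyte genes and HBB, a globin of red cells. Its summed level was 160 to 166 CPM in Control and 26.3 to 27.0 CPM in OE_CBX7, nearly all of it CD68 (161 to 23.6 CPM). PTPRC, the pan-leukocyte marker, had at most 9 counts, and 3 markers were at 0 in all libraries. The part of other cells in the IFIT result was not tested. CD14, a monocyte marker, was higher, at 1.31 ± 0.0772 CPM in Control and 2.80 ± 0.403 in OE_CBX7 (adjusted p = 0.0299). The 6 fibroblast markers summed to 5.31 and 8.02 CPM in Control and 8.47 and 7.74 in OE_CBX7. The 5 endothelial markers summed to 1.61 and 0.967 CPM in Control and 2.98 and 3.84 in OE_CBX7, with CDH5 called higher (log2 fold change 1.73, adjusted p = 0.00868). In these bulk libraries, fewer cells expressing a gene and less RNA per cell cannot be told apart.

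All 4 IFIT genes were lower in OE_CBX7 than in Control, and they separated into 3 genes left at under 1% of their control level and 1, IFIT5, left at 13.0%. By comparison, 13.9% of the 17271 tested genes were called lower at an adjusted p under 0.05, and 0.938% were called lower with a log2 fold change of -5 or below, which IFIT1, IFIT2 and IFIT3 were. The groups did not overlap for any of the 4 members, as was also so, with lower values in OE_CBX7, for 31.9% of tested genes.

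IFIT1, the reader of undermethylated caps, was at 2336 and 2097 CPM in the 2 Control libraries and at 7.57 and 17.2 CPM in the 2 OE_CBX7 libraries. The control values lie close together, while the second OE_CBX7 library was 2.27 times as high as the first (95% counting interval 2.08 to 2.49). The means were 2216 ± 169 and 12.4 ± 6.82 CPM (SD, n = 2 each), which is 179-fold (log2 fold change -7.48, SE 0.719, adjusted p = 0.0309). Without Control library 1 the log2 fold change was -7.40 with an adjusted p of 0.184, and without Control library 2 it was -7.55 with an adjusted p of 0.108. In these fits the lone control library is assumed to vary like the other group, and the spread of IFIT1 comes from its 2 unequal OE_CBX7 libraries alone. Without OE_CBX7 library 1 or 2 the log2 fold change was -7.01 or -8.18, and IFIT1 stayed called (adjusted p = 2.59e-47 and 3.19e-309).

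IFIT2, the partner of IFIT1 and IFIT3 in their complexes, was at 1377 and 1037 CPM in Control and at 5.09 and 4.16 CPM in OE_CBX7. Here the control libraries differed more than those of IFIT1, with library 2 at 0.753 times library 1, and the OE_CBX7 libraries were both low. The means were 1207 ± 240 and 4.63 ± 0.663 CPM, which is 261-fold (log2 fold change -8.03, SE 0.185, adjusted p = 9.27e-12).

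IFIT3, which stabilises IFIT1, was at 1218 and 1078 CPM in Control and at 3.99 and 5.31 CPM in OE_CBX7. Its levels in OE_CBX7 lay around those of IFIT2, and its groups were as far apart. The means were 1148 ± 98.9 and 4.65 ± 0.930 CPM, which is 247-fold (log2 fold change -7.95, SE 0.166, adjusted p = 7.59e-13). Ordered by the size of the fall among all tested genes, IFIT2 was at rank 49, IFIT3 at 52 and IFIT1 at 76.

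IFIT5, the reader of triphosphate ends, was at 206 and 180 CPM in Control and at 24.6 and 25.7 CPM in OE_CBX7. Its CPM, which is not corrected for length, was the lowest of the 4 in both Control libraries and the highest of the 4 in both OE_CBX7 libraries. The means were 193 ± 18.3 and 25.2 ± 0.756 CPM, which is 7.68-fold (log2 fold change -2.94, SE 0.116, adjusted p = 1.93e-10). Its rank by size of the fall was 405.

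**Figure D1:**
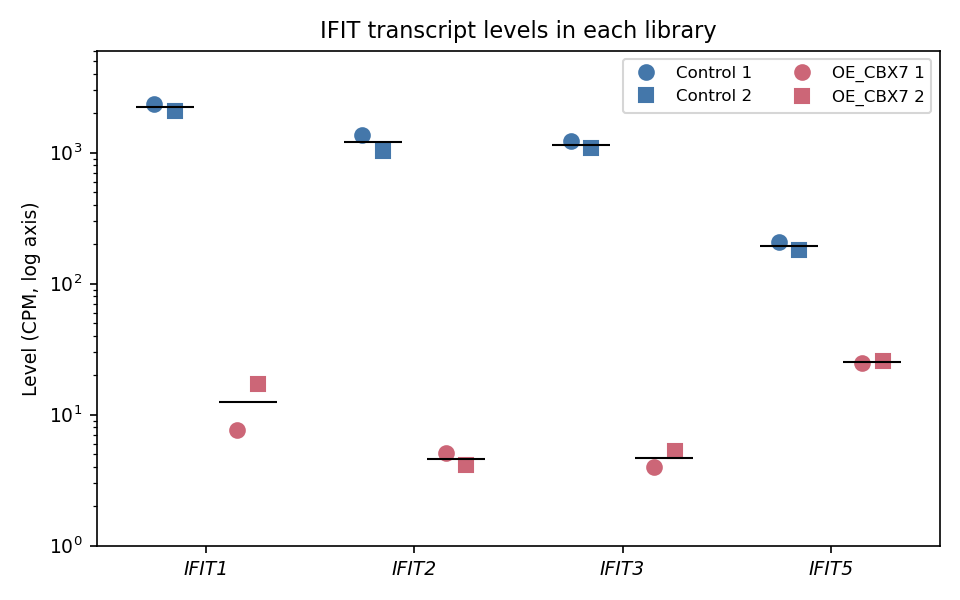
Level of each IFIT gene in each library, in CPM on a log axis. Blue marks are Control and red marks OE_CBX7, circles are replicate 1, squares replicate 2, and black bars the means of n = 2. The 4 genes are all lower in both OE_CBX7 libraries, IFIT5 changes from the lowest CPM of the 4 to the highest, and the IFIT1 marks lie far apart in OE_CBX7.

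Residual expression is given as the mean CPM in OE_CBX7 as a percent of the mean in Control. It was 0.559% for IFIT1 (95% exact counting interval 0.529 to 0.575), 0.383% for IFIT2 (0.353 to 0.404), 0.405% for IFIT3 (0.375 to 0.429) and 13.0% for IFIT5 (12.5 to 13.3). These intervals come from the ratio of summed counts and cover counting error only. Taken library by library against the control mean, the residual was 0.342% and 0.777% for IFIT1, 0.422% and 0.345% for IFIT2, 0.348% and 0.462% for IFIT3, and 12.7% and 13.3% for IFIT5. The spread over libraries therefore covered the differences among IFIT1, IFIT2 and IFIT3, and IFIT5 stood above them in both libraries. What remained was still counted well above the floor: the smallest member count was 374, in a library where 3 counts correspond to 0.0320 CPM.

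Together the 4 genes took 442490 and 299701 counts in Control, or 0.502% and 0.429% of the library. In OE_CBX7 they took 3867 and 4726 counts, or 0.00426% and 0.00532%. The make-up of this sum changed with its size. IFIT1 accounted for 45.5% and 47.7% of it in Control and for 18.3% and 32.9% in OE_CBX7 (Wilson 95% intervals 17.1 to 19.6 and 31.5 to 34.2). IFIT5 accounted for 4.02% and 4.11% in Control and for 59.7% and 49.1% in OE_CBX7 (58.1 to 61.2 and 47.6 to 50.5). In counts, then, the gene with the smallest share in the control line held the largest share in the line overexpressing CBX7.

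**Figure D2:**
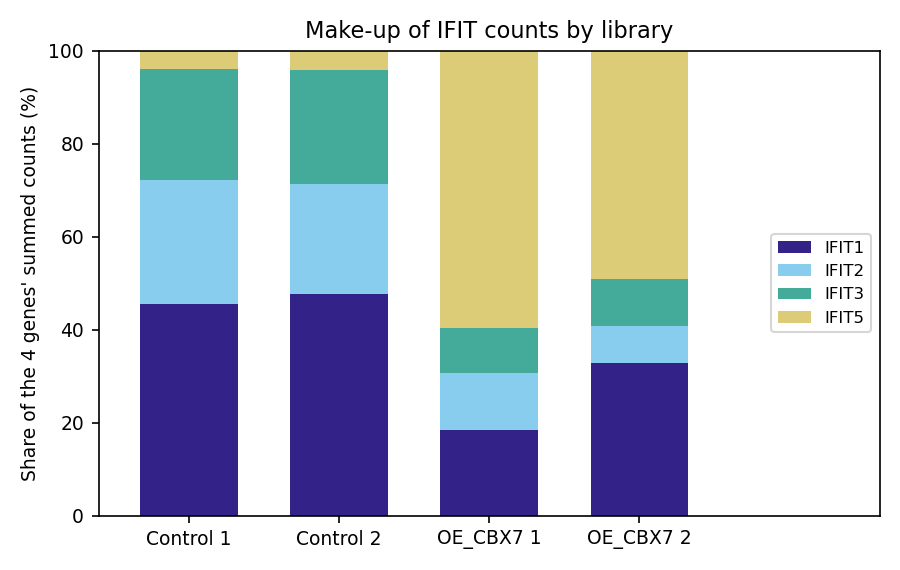
Share of each IFIT gene in the summed counts of the 4 genes, in percent, for each library. Bars are single libraries, and the sums are 442490, 299701, 3867 and 4726 counts from left to right. The IFIT5 segment is 4.02% and 4.11% in Control and 59.7% and 49.1% in OE_CBX7.

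Ratios between members counted in the same library need no scaling between libraries. The log2 ratio of IFIT1 to IFIT5 counts was 3.50 and 3.54 in Control and -1.70 and -0.58 in OE_CBX7, and that of IFIT3 to IFIT5 was 2.56 and 2.58 against -2.62 and -2.28. The log2 ratio of IFIT2 to IFIT5 was 2.74 and 2.52 in Control and -2.27 and -2.63 in OE_CBX7, a shift of -5.08. All 3 ratios against IFIT5 turned from above 0 to below 0 with no overlap. Among IFIT1, IFIT2 and IFIT3 the groups overlapped for all 3 ratios, with IFIT2 to IFIT3 at 0.18 and -0.06 in Control and 0.35 and -0.35 in OE_CBX7. With 2 libraries against 2, an exact two-sided permutation test cannot go below p = 0.333, so no ratio could pass. Adjusted over the 6 pairs, p was 0.667 for the pairs with IFIT5 and 1 for the others.

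Levels can be compared between genes only per length, here as CPM per kilobase of merged exons. In Control the order was IFIT1 at 480 ± 36.6, IFIT3 at 435 ± 37.4, IFIT2 at 294 ± 58.6 and IFIT5 at 48.1 ± 4.57 CPM per kilobase (SD, n = 2 each). IFIT1 and IFIT3 overlapped by library, and IFIT5 was far below. In OE_CBX7 the order was IFIT5 at 6.27 ± 0.188, IFIT1 at 2.69 ± 1.48, IFIT3 at 1.76 ± 0.352 and IFIT2 at 1.13 ± 0.162 CPM per kilobase. There IFIT1 overlapped with IFIT3, and IFIT2 lay below both. The merged exons of IFIT1 span 4613 bases, against 1880 for its transcript with the longest coding part. With that transcript's length, a choice made after the data were seen, IFIT1 was at 1179 ± 89.9 CPM per kilobase in Control, well above IFIT3 at 460, so that the overlap of the pair was lost. In OE_CBX7 it was then at 6.59 ± 3.63 CPM per kilobase and no longer separated from IFIT5, which stayed at 6.27. With lengths chosen in the same way, IFIT2 was at 397 ± 79.1 in Control and 1.52 ± 0.218 in OE_CBX7. IFIT3 was at 460 ± 39.6 and 1.86 ± 0.373, so that IFIT2 and IFIT3 overlapped by library in both groups. Among 16124 genes with a length, the rank per kilobase fell from 40 to 8899 for IFIT1, from 96 to 10920 for IFIT2, from 50 to 9972 for IFIT3 and from 868 to 6062 for IFIT5.

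Related sequences could in principle share reads, and how the counting handled such reads is not given in the sources used here. The coding parts of IFIT1 and IFIT1B were 79.0% identical over aligned bases, and IFIT2 and IFIT3 were 72.8% identical. No run of 50 bases was shared between any 2 of the 4 members, while IFIT1 and IFIT1B shared 38 such runs. IFIT1B itself had 10 and 33 counts in Control and 4 and 0 in OE_CBX7, far below the counts of IFIT1 in the same libraries.

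The gap between the OE_CBX7 libraries that IFIT1 shows can be set beside that of other genes. The 11354 tested genes at 4 CPM or more in OE_CBX7 include genes far more abundant than IFIT1 there. Of the 11354, 0.370% differed 2-fold or more between the 2 libraries in either direction. With library 2 the higher, 21 genes (0.185%, IFIT1 among them) had a ratio at least as large as that of IFIT1. Genes as far apart in the other direction are not in that count. The other members did not share the gap of IFIT1. Their ratio of library 2 to library 1 was 0.816 for IFIT2 (95% counting interval 0.711 to 0.936), 1.33 for IFIT3 (1.16 to 1.53) and 1.04 for IFIT5 (0.985 to 1.11). The effector gene MX2 had 0 counts in OE_CBX7 library 1 and 28 in library 2, and so gave no ratio. Of 28 other antiviral effectors with a value in both libraries, 7 had a ratio above 1.5. Among them were OASL and MX1, the latter on only 19 and 34 counts, and the median ratio was 1.10. What sets the gap of IFIT1 was not tested.

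The genes whose profiles over the 4 libraries were most like each member were picked by the Euclidean distance between centred log2(CPM + 0.1) values, among 13378 genes with a mean of 1 CPM or more. For IFIT1 these were OASL at 0.184, ISG15 at 0.345 and EGR1 at 0.415 log2 units. For IFIT2 they were IFNL1 at 0.228, IFNL3 at 0.411 and IDO1 at 0.509. For IFIT3 they were IFI44L at 0.165, IFNL3 at 0.202 and IFNL1 at 0.398. For IFIT5 they were NT5C3A at 0.0501, CXCL8 at 0.0703 and TGM2 at 0.126, with log2 fold changes of -2.92, -2.88 and -2.86. With a pseudocount of 0.5, chosen after the data were seen, 2 of the 3 names stayed for IFIT1, 3 for IFIT5 and 0 for IFIT2 and IFIT3, whose neighbours are near 0 in OE_CBX7. Between members the distance was 0.518 for IFIT2 and IFIT3, 0.645 for IFIT1 and IFIT3, 1.12 for IFIT1 and IFIT2, and 4.72 to 5.06 to IFIT5.

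A list of 29 other interferon-induced effectors places the IFIT values. Of these, 29 were called lower and 0 higher, where 13.9% of all tested genes were called lower. In the fit with replicate number as a block, 25 were called lower. Some of the calls, that of OASL among them, were also lost when either Control library was left out. The median log2 fold change was -6.04, against -0.00015 over all tested genes. The list includes OAS2, an enzyme that makes an oligoadenylate messenger on sensing double-stranded RNA, at 862 ± 122 and 0.618 ± 0.138 CPM (log2 fold change -10.44), and RSAD2, the antiviral enzyme viperin, at 349 ± 47.5 and 0.652 ± 0.0443 CPM (-9.06). XAF1, an antagonist of inhibitors of apoptosis, had a log2 fold change of -9.80 and IFI44 one of -9.42. The largest residual among them was 35.5%. The median residual of the 29 was 1.52%, and 7 or 8 of them fell further than IFIT1, IFIT2 or IFIT3. IFIT5 lay at the other end, with 26 of the 29 falling further.

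**Figure D3:**
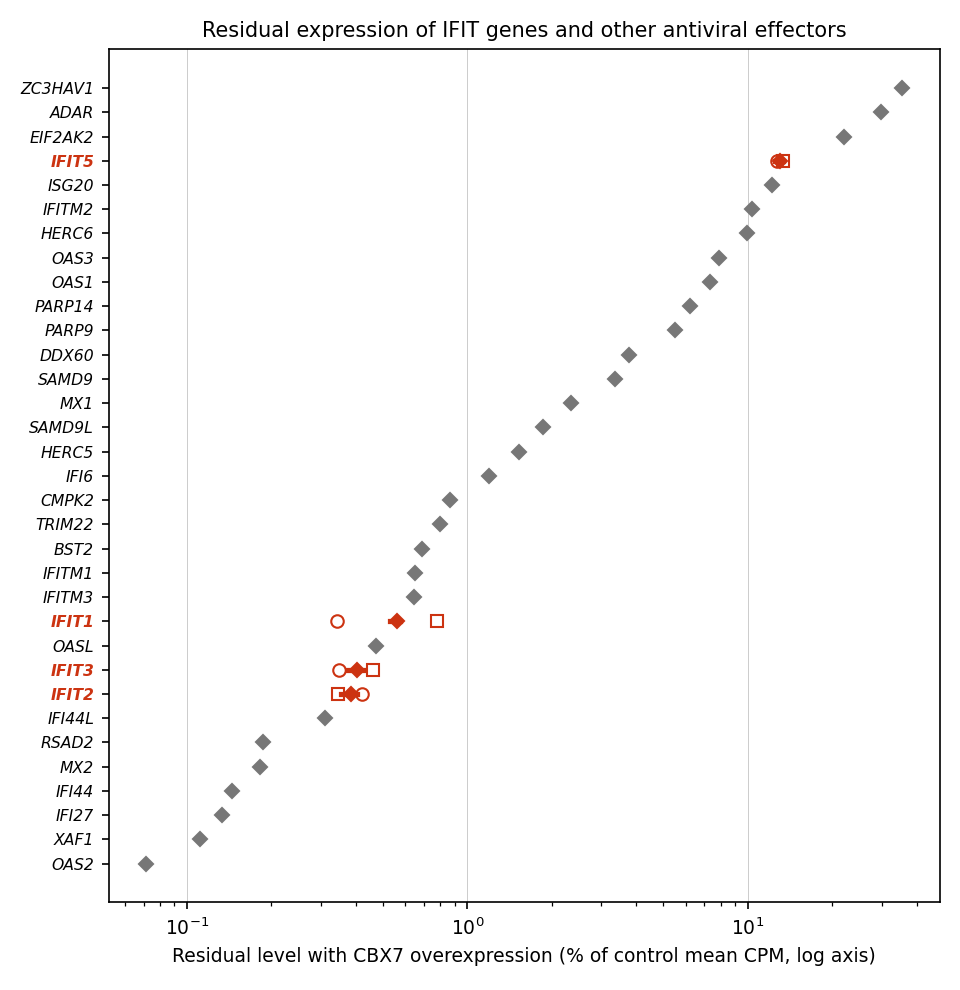
Residual level in OE_CBX7 as a percent of the mean control CPM, on a log axis, for the 4 IFIT genes (red) and 29 other antiviral effectors (grey). Diamonds are ratios of group means, open circles and squares are OE_CBX7 libraries 1 and 2, and red lines the counting interval. IFIT1, IFIT2 and IFIT3 lie at 0.383% to 0.559%, with 7 or 8 effectors below them, and IFIT5 lies at 13.0%.

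Interferons and their receptors stand at the top of the pathway. Of 11 tested interferon and receptor genes, 6 were called lower and 0 higher, where 13.9% of all tested genes were called lower and 10.5% higher. The median log2 fold change of the 11 was -0.68, which is the same with the genes at 0 set to their bound. The type III interferon genes carried the largest falls. IFNL1 had 2697 and 1460 counts in Control and was listed at 0 in both OE_CBX7 libraries, at least 807-fold lower against a floor of 3 counts per library. IFNL2 had 3483 and 2094 counts in Control and was likewise listed at 0, at least 1089-fold lower. IFNL3, a near-identical copy of IFNL2 with which it may share reads, had 2709 and 1583 counts in Control and 0 and 2 in OE_CBX7. IFNB1, the type I interferon of epithelial cells, had 2035 and 1196 counts in Control and 31 and 0 in OE_CBX7. It missed the threshold with an adjusted p of 0.0831, and it passed in DESeq2 (adjusted p = 0.0296) and limma-voom (0.000829). A listed 0 may be a failed estimate, since the table is taken to hold estimated counts.

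The receptor genes gave log2 fold changes nearer to 0 than the ligands. IFNAR1, a chain of the type I receptor, was at 51.2 ± 1.68 and 50.6 ± 0.665 CPM and was not called (adjusted p = 0.931), while the other chain, IFNAR2, was at 58.5 ± 1.72 and 43.2 ± 0.0540 CPM (log2 fold change -0.44, adjusted p = 0.00950). The IFNAR2 call was lost without OE_CBX7 library 1 (0.0798) and without OE_CBX7 library 2 (0.107). The chains of the type III receptor, IFNLR1 and IL10RB, missed the threshold (adjusted p = 0.439 and 0.148). The type II chains IFNGR1 and IFNGR2 were lower, with log2 fold changes of -0.66 and -0.68. The type II ligand gene IFNG was at 0 in all libraries.

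Among 18 kinases, transcription factors, sensors and adaptors, 14 were called lower and 1 higher, with a median log2 fold change of -2.19. Over all tested genes, 13.9% were called lower and 10.5% higher. JAK1 and TYK2, the kinases on the receptors, missed the threshold (adjusted p = 0.381 and 0.759). STAT2 and IRF9, which act together at the ISRE, were lower. STAT2 was at 205 ± 7.98 and 17.3 ± 2.38 CPM (log2 fold change -3.57) and IRF9 at 125 ± 0.00721 and 21.5 ± 6.84 CPM (-2.54). IRF9 was the less firm of the pair, with an adjusted p of 1.97e-05 that became 0.0502 without Control library 1. IRF3, which can act on the ISRE without interferon, was at 33.8 ± 3.89 and 35.7 ± 1.24 CPM and was not called, while IRF7, itself interferon-induced, went from 164 ± 1.28 to 4.55 ± 1.64 CPM (-5.17). IRF1, which binds similar elements, went from 375 ± 41.2 to 22.2 ± 0.337 CPM (-4.08).

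The RNA sensors were lower by amounts between those of IFIT5 and IFIT2. RIG-I, listed under its older symbol DDX58, went from 573 ± 71.8 to 15.3 ± 3.04 CPM (log2 fold change -5.23) and IFIH1, which encodes MDA5, from 415 ± 50.3 to 7.75 ± 0.874 CPM (-5.74). DHX58, a regulator of both, went from 18.0 ± 2.46 to 0.218 ± 0.0211 CPM (-6.36), and TLR3, the endosomal sensor of double-stranded RNA, from 67.0 ± 14.4 to 3.38 ± 0.372 CPM (-4.31). TRIM25, a ubiquitin ligase for RIG-I, fell with a log2 fold change of -2.53. The kinase genes that activate IRF3 fell less, with log2 fold changes of -0.63 for TBK1 and -1.41 for IKBKE, and TICAM1, the TLR3 adaptor, had -1.66. On the DNA-sensing side CGAS had -0.85, and STING1, at 3.13 ± 0.733 CPM in Control, had -1.85 with an adjusted p of 0.0298 that rose to 0.144, 0.0616 and 0.0756 without Control library 1, Control library 2 and OE_CBX7 library 1. MAVS, the mitochondrial adaptor downstream of RIG-I and MDA5, was the gene that was higher, at 145 ± 15.0 and 184 ± 11.9 CPM (0.35, adjusted p = 0.0283), and this call was lost without Control library 1 (0.146) and without OE_CBX7 library 1 (0.245).

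Of 7 genes that brake interferon signalling, 4 were called lower and 0 higher, where 13.9% of all tested genes were called lower, and the median log2 fold change was -2.13. USP18, which blocks the type I receptor, went from 288 ± 13.0 to 18.3 ± 0.771 CPM (-3.97). ISG15, which stabilises USP18, went from 1035 ± 106 to 7.08 ± 3.47 CPM (-7.19, adjusted p = 0.0202), a call that was lost without Control library 1 (0.148) and without Control library 2 (0.0762), like that of IFIT1. SOCS1 and SOCS3, inhibitors of receptor kinases, went from 3.51 ± 0.181 to 0.217 ± 0.0558 CPM and from 42.3 ± 2.11 to 9.67 ± 2.04 CPM. PIAS1, PTPN2 and PTPN6 were not called, with log2 fold changes of 0.02, -0.25 and 0.31.

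**Figure D4:**
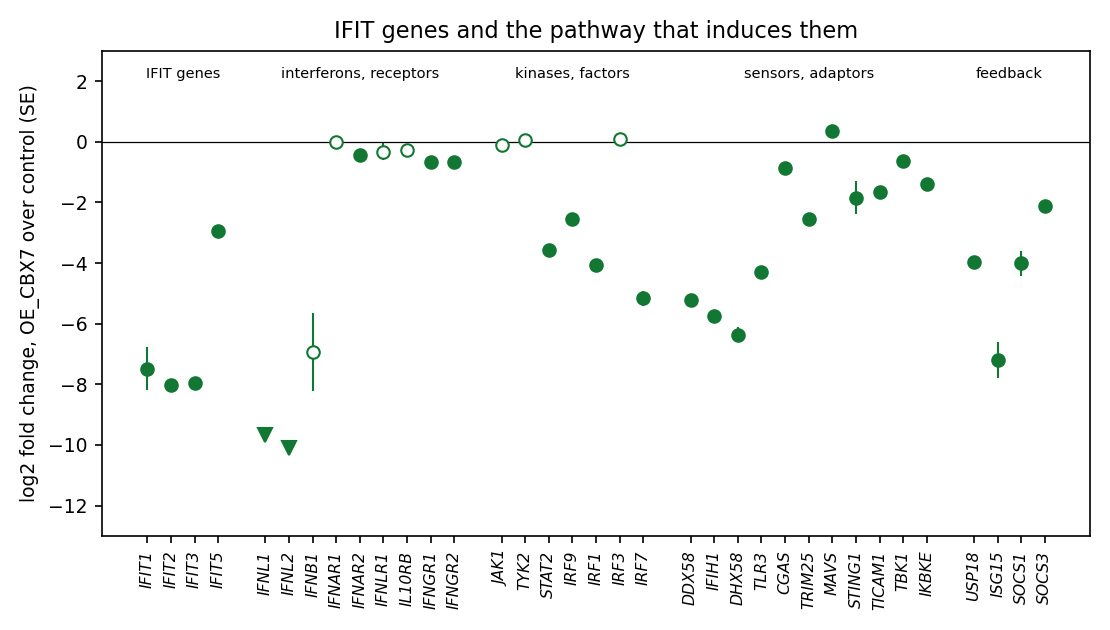
Log2 fold change of OE_CBX7 over Control with its SE, for the 4 IFIT genes and genes of the pathway that induces them, grouped by role. Filled circles were called at an adjusted p under 0.05, open circles were not, and triangles are lower bounds on the size of the fall for IFNL1 and IFNL2, listed at 0 in OE_CBX7. IFNL3, with 2 counts in OE_CBX7, is not drawn. Receptor chains lie between -0.68 and -0.02, with IFNAR2, IFNGR1 and IFNGR2 called lower. JAK1, TYK2 and IRF3 lie near 0, and IFIT1, IFIT2 and IFIT3 lie at -7.48 to -8.03.

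The enzymes that make, methylate and remove the RNA ends read by IFIT proteins changed less. Of 14 genes, 6 were called lower and 0 higher, against 13.9% called lower over all tested genes, with a median log2 fold change of -0.35. CMTR1, the methyltransferase that adds the ribose methyl group IFIT1 tests for, was at 151 ± 12.1 and 40.8 ± 0.160 CPM, with an adjusted p of 1.77e-08 for its log2 fold change of -1.89. The decapping cofactors DCP1A and DCP1B had -1.22 and -0.87, and XRN1, the exonuclease that degrades decapped RNA, had -1.22. The count of 6 became 3 without OE_CBX7 library 1, and DCP1B was among those lost (adjusted p = 0.0539).

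Translation initiation factors, including eIF3, to which IFIT1 and IFIT2 bind, were called in both directions. Of 26 genes, 3 were called higher and 3 lower, where 24.4% of all tested genes were called in either direction (10.5% higher), and the median log2 fold change was 0.01. EIF4A2, a helicase of the cap-binding complex, had -0.48 and EIF4A1, its close relative, -0.31. EIF3L, an eIF3 subunit, had 0.39 and EIF4E3, a cap-binding protein, 0.64. The calls of EIF4A1, EIF3L and EIF4E3 were fragile. That of EIF4A1 was lost with library totals (0.0660), in the exact test (0.0946) and without Control library 1, Control library 2 or OE_CBX7 library 1 (0.0834, 0.106 and 0.253). That of EIF3L was lost without Control library 1 (0.0597) or OE_CBX7 library 2 (0.109), and that of EIF4E3 without Control library 2 or either OE_CBX7 library (0.0547, 0.0674 and 0.109). The counts moved with them: 1 gene was called lower with library totals as the scaling and 5 with a minimum mean count of 50, and without OE_CBX7 library 2 the number called higher was 0.

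The genes around the cluster give the setting of the fall on chromosome 10. LIPA, which encloses 3 of the members on the other strand, was at 219 ± 18.4 and 139 ± 3.49 CPM (log2 fold change -0.66, adjusted p = 0.000262), far less of a change than in the genes inside it. CH25H, an interferon-induced enzyme that makes an antiviral oxysterol, had 42 and 17 counts in Control and 0 and 4 in OE_CBX7 and was not called (adjusted p = 0.0569). Of the next genes on that side, FAS, a death receptor, had -1.79, STAMBPL1, a deubiquitinase, had -1.22 and ACTA2, smooth muscle actin, had -1.04, and all 3 were called lower. ANKRD22 was not called, with an adjusted p of 0.135. On the other side, PANK1, an enzyme of coenzyme A synthesis, was at 9.37 ± 1.29 and 9.21 ± 1.77 CPM and was not called (adjusted p = 0.952). KIF20B, HTR7 and RPP30 were not called either, SLC16A12 was too low to be tested, and ANKRD1 was lower at -0.97. IFIT1B, at a log2 fold change of -3.70 on few counts, was not called. None of the other tested genes around the cluster had a log2 fold change below the -3.98 of CH25H.

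**Figure D5:**
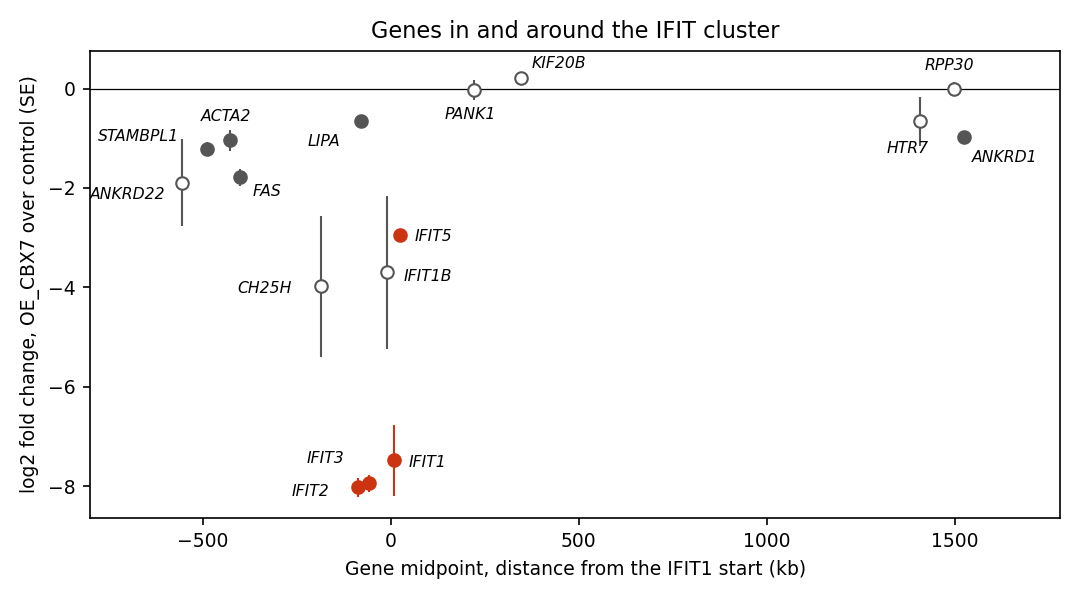
Log2 fold change of OE_CBX7 over Control with its SE, against the distance of each gene's midpoint from the IFIT1 start in kilobases. Red marks are IFIT1, IFIT2, IFIT3 and IFIT5, and grey marks are the other genes, IFIT1B among them. Filled circles were called and open circles were not. LIPA at -0.66 lies close to IFIT2 and IFIT3 at -8.03 and -7.95, and PANK1 and KIF20B lie near 0.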

How the data were processed

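The authors deposited a table of whole numbers per gene symbol and library, treated here as estimated counts from the values and tools. The submitters' processing notes name HISAT2 2.2.1, StringTie 2.2.1, DESeq2 and hg38, with no role. The annotation is not given in the sources used here, nor are strandedness and the handling of shared reads.

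Counts entered unrounded into edgeR 4.0.16 (R 4.3.3) with filterByExpr, TMM scaling and a robust quasi-likelihood test over all 4 libraries with group as the only term. Genes were called at a Benjamini-Hochberg adjusted p under 0.05 over 17271 tested genes. CPM used TMM-scaled totals. Exon lengths and overlaps came from GENCODE, positions and promoters from RefSeq. The test was checked on simulated counts, with 50 genes changed at each size. It recovered 100% of them at true log2 fold changes of -7 and -3, 38% at -1 and 56% at 1. A gene that was not called may therefore still have changed. The size of such a change is not limited to a modest one. Among genes not called, the log2 fold change was -6.93 for IFNB1, -3.98 for CH25H and -3.70 for IFIT1B. Alternatives used other scaling, filters and tests (DESeq2 1.42.0, limma-voom 3.58.1), a replicate block and leaving out each library. The edgeR exact test, the per-transcript length and the pseudocount of 0.5 were added after seeing the data.

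The members and gene lists were chosen with earlier results of these data known. Named are the 4 members, CBX7, neighbours of the cluster, induction genes with a stated role, up to 4 genes of smallest p in each other list and the 3 nearest profiles of each member. MX1, MX2 and the marker genes named were chosen after their values were seen. Of the effectors and of the kinases, factors and adaptors, 1 gene each is not reported here and is left out of its list's counts. Replicate libraries were not copies of each other: their counts gave a chi-square of 54.2 (Control) and 42.3 (OE_CBX7) per degree of freedom.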

Additional observations from a re-analysis of the deposited data

How the results depend on the processing

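IFIT2, IFIT3 and IFIT5 stayed called lower under every alternative run. IFIT1 stayed lower throughout, with leave-one-out log2 fold changes of -8.18 to -7.01, but lost its call without either control library and under the replicate block (-7.58, adjusted p = 0.130). The cause was not tested. The labels do not pair the replicate numbers, and deviations of same-numbered libraries correlated at 0.108 over only 2 pairs, so the block is a hint at most; ISG15 and OASL also lost their calls under it (adjusted p = 0.116 and 0.0705). Across the other alternatives its adjusted p ran from 3.19e-309 (without OE_CBX7 library 2) to 0.0398 (no filter). Genes called higher over the table ranged from 1021 to 1790 when a library was left out, and scaling by library totals gave 2486 higher and 2033 lower against 1809 and 2399, with a median shift of 0.07. Leaving out a library gave ranges of 0 to 1 for kinases and adaptors called higher, 3 to 6 for cap enzymes called lower, 1 to 2 and 0 to 2 for initiation factors called lower and higher, and 1 to 2 for the RNA binders called lower. Initiation factors called lower numbered 1 with library totals, 5 with a mean count of 50 or more and 1 in the exact test. Residual expression without a library ran from 0.338% to 0.447% for IFIT2 and from 12.3% to 13.99% for IFIT5, which was at 13.6% with library totals. The longer motif form left 1 match each for IFIT1 and the IFIT3 windows. Of the values of single genes, only uncalled ones changed sign: PANK1 (0.044 with library totals, -0.23 to 0.17 without a library), RPP30 (0.066 with library totals, 0.010 with no filter, 0.0039 in DESeq2, -0.11 to 0.11 without a library), IFNAR1 (0.048 with library totals, -0.044 to 0.018 without a library) and IRF3 (-0.026 to 0.20 without a library). A count of 0 allows up to 0.0320 to 0.0440 CPM by library, counting error only, which limits what is known of genes listed at 0 such as IFNL1 and IFNL2.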

Other observations

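A contrast list of 10 RNA-binding proteins without strong interferon control held 3 genes called lower and 0 called higher, with a median log2 fold change of -0.09, where 13.9% of all tested genes were called lower. PATL1, a decapping activator, was at 201 ± 10.1 CPM in Control and 95.9 ± 6.34 CPM in OE_CBX7 (log2 fold change -1.07, adjusted p = 3.58e-06). HNRNPU, a nuclear RNA-binding protein, had -0.37 (adjusted p = 0.0118), and DROSHA, the microRNA-processing nuclease, had -0.32 (adjusted p = 0.0415). The HNRNPU call was lost without Control library 1 (0.0540) and without OE_CBX7 library 2 (0.140), and that of DROSHA with library totals (0.101), in the fit that was not robust (0.0532), in the exact test (0.0599) and without Control library 2, OE_CBX7 library 1 or OE_CBX7 library 2 (0.0775, 0.162 and 0.326).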
